A study of Mus musculus with 8 samples.

Results

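The genes described here encode the chemokine receptor Cxcr3 and its 3 classical chemokine ligands, Cxcl9, Cxcl10 and Cxcl11, in activated mouse microglia. They were found by their gene symbols, which matched in both deposited tables joined by gene identifier, and make up 4 of the 31406 genes listed. Of these 4 genes, 3 (all the ligands) passed the filter on low counts that left 18756 genes for testing, and Cxcr3 did not.

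CXCL9, CXCL10 and CXCL11 are small secreted proteins without the ELR motif that marks many other CXC chemokines. They are induced by interferons, with help from NF-κB, and they attract activated T cells and natural killer cells, which carry the Gi-coupled receptor CXCR3. Microglia and astrocytes are known to produce them in the inflamed brain. In C57BL/6 mice the Cxcl11 gene is transcribed but carries an altered reading frame and makes no functional chemokine. The deposited annotation accordingly classes it as a polymorphic pseudogene, so its values below are RNA levels and not those of a ligand.

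The cultures were primary striatal microglia of wild-type C57/BL6 newborn pups, kept for 15 days. All 8 libraries came from cells activated for 48 h with lipopolysaccharide (LPS, 0.01% v/v), a bacterial agonist of Toll-like receptor 4, together with interferon-γ (0.002% v/v). The methods list the interferon-γ as the human protein, which is known to act poorly on the mouse receptor. According to the titles, 4 libraries came from cells given SCH 58261, an antagonist of the adenosine A2A receptor (A2A antagonist group), and 4 from cells given SCH 58261 with 200 nM 2-Cl-IB-MECA, an agonist of the adenosine A3 receptor (dual group). These compounds were given at 24, 32 and 40 h. Activation and SCH 58261 were therefore common to both groups, and the comparison asks what the A3 receptor agonist added. Vehicle-treated cells were not analysed here. The treatment field of the labels contradicts the titles, since 2-Cl-IB-MECA appears there for the group titled SCH 58261 alone and is missing for the group titled with both compounds. Groups follow the titles and the column names, and every direction below rests on them. The paper's methods and a figure legend disagree on the number of replicates, and only the legend gives 4 for ligand-treated cells, as the titles do. The paper counts 4 pregnant animals without linking them to libraries. Nothing states that the 4 libraries of a group came from separate cultures, so p-values measure the spread between these libraries, which may be technical.

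A library held between 38427491 and 45878639 counts with the antagonist and between 32630602 and 45544451 with both compounds. No pair of libraries within a group agreed within sampling noise, the chi-square per degree of freedom lying between 3.8 and 9.43. Microglia markers (9 genes, Cx3cr1, P2ry12, Tmem119, C1qa, C1qb, Csf1r, Aif1, Itgam and Trem2) were all detected. Their summed level was 1171.9 to 1262 CPM (counts scaled to library size) with the antagonist and 1099.7 to 1171.5 CPM with both compounds. These ranges did not overlap by a narrow margin, and both lay below those of 8 astrocyte markers, 5946 to 6211 and 5993 to 6457 CPM. Of the 9 microglia markers, 5 were lower in the dual group and 4 higher. C1qa (mean 476 and 403 CPM) and C1qb (234 and 207) were lower without overlap of the groups. Csf1r (218 and 235) was higher, also without overlap. Non-overlapping groups were found for 7.42% of all genes tested. The 6 fibroblast markers summed to 2379 to 2652 and 2369 to 2986 CPM. None of the astrocyte and fibroblast markers was called by edgeR or, where it gave an adjusted p, DESeq2. At an unadjusted p under 0.05, 3 of 6 fibroblast markers (Col3a1, Dcn and Lum) were higher in the dual group, and of 8 astrocyte markers 2 were higher (Slc1a2 and Gja1) and 1 was lower (Aldh1l1). Over all genes tested, 12.8% reached that p (edgeR), 6.81% in the lower direction. Lymphocytes, the main bearers of CXCR3, left little trace: of 14 lymphocyte markers 11 were listed, with a sum of 7.39 to 8.41 and 6.41 to 7.78 CPM. Lck, the one marker that passed the filter, made up nearly all of it (7.17 to 7.92 and 6.13 to 7.33 CPM), and Cd3d and Cd3e had at most 2 counts in a library. The paper reports a high purity of microglial cells after labelling with anti-CD11b antibodies, a protein measure that the RNA sums above do not repeat. The cells are called microglia below because the labels and the paper do so. The part of each cell type in the chemokine levels was not tested.

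The 3 ligand genes lie side by side on the minus strand of chromosome 5, within 44.1 kb (GRCm38). Cxcl9 (ENSMUSG00000029417) covers positions 92321347 to 92328079, Cxcl10 (ENSMUSG00000034855) 92346638 to 92348889 and Cxcl11 (ENSMUSG00000060183) 92359544 to 92365485. Cxcr3 (ENSMUSG00000050232) is on the minus strand of chromosome X, from 101731535 to 101734269. Art3, on the plus strand, runs over Cxcl10 and Cxcl11 and shares 133 exonic bases with Cxcl10. Whether counting used the strand of the reads is not given in the sources used here, which leaves the counts of these overlapping genes uncertain. Art3 itself had 74 to 117 counts per library, 0.436% to 0.558% of the Cxcl10 count. Cxcl11 shares no exonic base with Art3 but shares 1582 of its 3794 exonic bases with Gm2673. This gene, a processed pseudogene on the opposite strand, was not listed by that symbol among the genes analysed. The Cxcl11 level is uncertain for the same reason.

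The 250 bases upstream of Cxcl9 and Cxcl10 are shown because these genes are classical targets of interferon and NF-κB signalling. The genes were read out after LPS and interferon-γ had been added. Both sequences are from RefSeq (GRCm38.p6) and are written 5′ to 3′ on the minus strand, ending next to the annotated start. Capitals mark matches to the consensus of the interferon-stimulated response element or of the κB site, searched on both strands. The Cxcl9 sequence is chr5:92328080-92328329 and the Cxcl10 sequence is chr5:92348890-92349139.
Cxcl9: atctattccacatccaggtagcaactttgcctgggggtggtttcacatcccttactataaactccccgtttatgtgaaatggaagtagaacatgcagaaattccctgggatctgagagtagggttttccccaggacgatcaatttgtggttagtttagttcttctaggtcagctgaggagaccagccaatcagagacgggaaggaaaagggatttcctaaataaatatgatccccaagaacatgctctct
Cxcl10: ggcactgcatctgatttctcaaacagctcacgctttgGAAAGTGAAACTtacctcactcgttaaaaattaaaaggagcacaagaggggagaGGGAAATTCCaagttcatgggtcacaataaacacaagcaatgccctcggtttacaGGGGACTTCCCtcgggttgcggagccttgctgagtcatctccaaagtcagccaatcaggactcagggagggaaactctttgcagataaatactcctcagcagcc
The Cxcl10 sequence held 1 match to the response element, GAAAGTGAAACT, 213 to 202 bases upstream, and such a match occurs in 1.39% of 32851 promoters of the same length. It also held 2 stretches matching the κB consensus, 159 to 150 and 104 to 94 bases upstream, the second made of 2 overlapping windows. The κB consensus occurs in 7.25% of these promoters. No match to either was found in the Cxcl9 sequence. A looser κB pattern, with any base at the inner positions, is found in 45.8% of promoters and was also present upstream of Cxcl9. Neither sequence held the gamma-activated site motif (TTCNNNGAA, in 7.02% of promoters). Matches describe letters only and are not evidence of binding.

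The 4 genes differed in level by orders of magnitude. Between genes, levels are compared as FPKM (fragments scaled to gene length and library size), which the authors deposited. Cxcl10 led with 214 ± 13.8 FPKM (SD, n = 4) in the A2A antagonist group and 182 ± 8.91 FPKM (SD, n = 4) in the dual group, rank 165 of the 31406 genes. Cxcl11 followed with 71.0 ± 4.80 and 63.4 ± 2.60 FPKM, rank 669. Cxcl9 had 2.34 ± 0.241 and 1.79 ± 0.192 FPKM, rank 11453. At the bottom, Cxcr3 had 0.132 ± 0.0820 and 0.0827 ± 0.0522 FPKM, rank 20905. The ranges of neighbours in this order did not overlap across the 8 libraries. The order was the same when the length of the principal spliced transcript replaced the union of all exons, an alternative chosen after seeing the data. With the antagonist, Cxcl10 then had 444 ± 28.1, Cxcl11 171 ± 11.4, Cxcl9 2.46 ± 0.257 and Cxcr3 0.133 ± 0.0828 CPM per kb.

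Ligand RNA therefore consisted almost wholly of Cxcl10 and Cxcl11. Of the FPKM summed over the 3 ligands, Cxcl10 took 72.9% to 75.6% in the A2A antagonist libraries and 73.3% to 74.2% in the dual libraries, and Cxcl9 took at most 1.01%. All 3 together made up 0.0705% to 0.0792% of the counts with the antagonist and 0.0620% to 0.0684% with both compounds.

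Cxcl10, the most abundant of the ligands, was lower with both compounds than with the antagonist alone. In the A2A antagonist libraries 1 to 4 it had 446, 498, 482 and 519 CPM (17206, 22653, 20147 and 23567 counts), and in the dual libraries 1 to 4 it had 417, 432, 383 and 419 CPM (13613, 16444, 17574 and 18575 counts). The groups did not overlap: every dual library lay below the lowest antagonist library, which was replicate 1. The means were 486 ± 30.7 and 413 ± 21.1 CPM (SD, n = 4 each), 15.1% lower in the dual group. This is a log2 fold change of -0.24 (SE 0.04, 95% interval -0.33 to -0.14), and its adjusted p was 0.0311 in the edgeR quasi-likelihood test. A two-sided exact permutation test on log2 CPM gave p = 0.0286, the smallest that 70 arrangements of 4 against 4 libraries allow. Cxcl10 was 1 of 39 genes called at an adjusted p under 0.05, 0.208% of all genes tested, of which 30 were lower (0.160%) and 9 were higher (0.0480%) in the dual group. Non-overlapping groups were found for 7.42% of the genes tested, 4.06% with lower values in the dual group, and for 2 of the 3 tested members, Cxcl10 and Cxcl9. In this bulk RNA, fewer Cxcl10-producing cells and less Cxcl10 RNA per cell cannot be told apart.

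The call of Cxcl10 depended on which libraries entered the fit. With each library left out in turn, the log2 fold change stayed between -0.28 and -0.20. The gene was called in 3 of 8 such fits and missed the threshold without A2A antagonist replicate 2 (adjusted p = 0.113, edgeR), 3 (0.0811) or 4 (0.118) and without dual replicate 1 (0.0516) or 3 (0.1003). The number of genes called moved as well, from 39 to 172 without A2A antagonist replicate 1, to 5 and 6 without A2A antagonist replicates 2 and 3, and to 0 by edgeR without A2A antagonist replicate 4 or dual replicate 3, which left 1802 and 2092 genes at an unadjusted p under 0.05. Leaving out each of the other 3 libraries gave 31 to 49 called genes. DESeq2 gave Cxcl10 an adjusted p of 0.000115, among 417 called genes of the 8877 with an adjusted value (4.70%, with 3.36% lower). The spread between libraries (coefficient of variation 6.32% and 5.10%) stood beside an expected counting error of 0.692% and 0.777%.

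**Figure D1:**
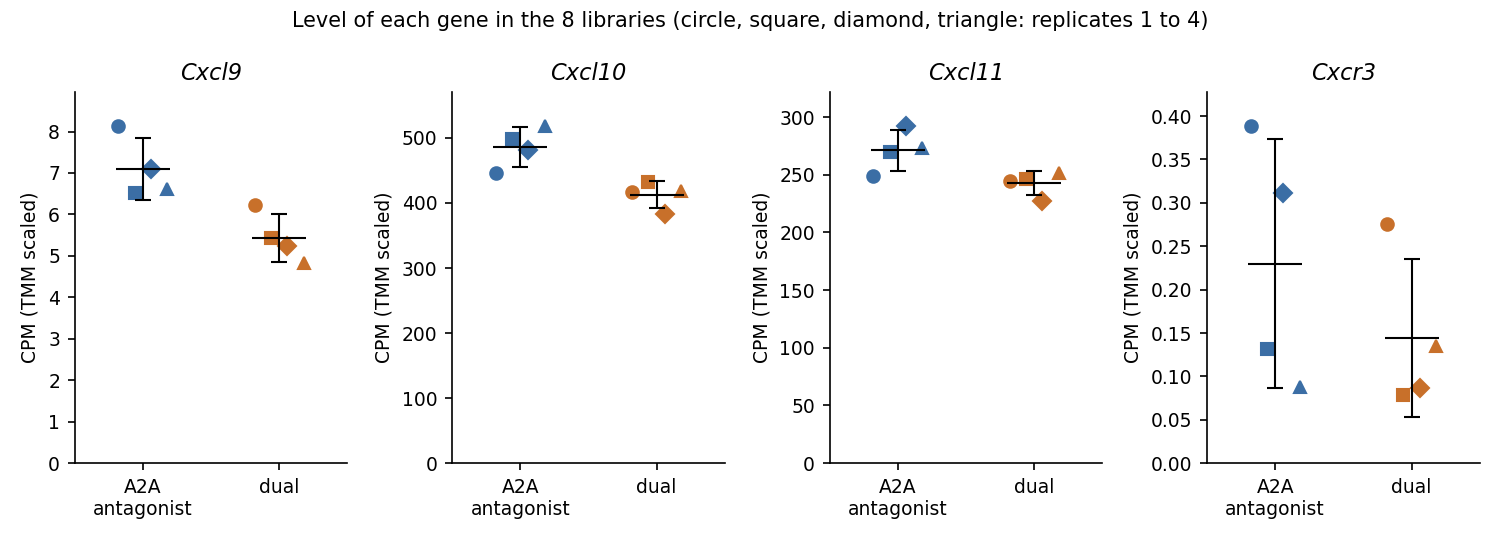
Level of each gene (vertical axis, TMM-scaled CPM, each panel from 0 on its own scale) in the 4 A2A antagonist libraries (blue) and the 4 dual libraries (orange). Circle, square, diamond and triangle are replicates 1 to 4, and bars are the mean ± SD. The groups do not overlap for Cxcl9 and Cxcl10 and do overlap for Cxcl11 and Cxcr3.

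Cxcl9, the ligand with the tightest dependence on interferon-γ, had the lowest level of the 3 ligands and the log2 fold change farthest from 0. The A2A antagonist libraries 1 to 4 had 8.14, 6.51, 7.11 and 6.63 CPM (314, 296, 297 and 301 counts), and the dual libraries 1 to 4 had 6.22, 5.44, 5.23 and 4.83 CPM (203, 207, 240 and 214 counts). No dual library reached the lowest antagonist library, and replicate 1 was the highest of its group in both groups. The means were 7.09 ± 0.743 and 5.43 ± 0.586 CPM (SD, n = 4 each). The log2 fold change was -0.39 (SE 0.10, 95% interval -0.60 to -0.18), the mean being 23.5% lower in the dual group. It did not pass the threshold over all genes (adjusted p = 0.101, edgeR), and by exact permutation p was 0.0286, again the smallest possible. The spread between libraries was 10.5% and 10.8%, beside an expected counting error of 5.75% and 6.80%. Leaving out single libraries gave -0.46 to -0.32 and no call, whereas the fit without a filter on low counts called the gene (adjusted p = 0.0252, edgeR). DESeq2 gave no adjusted p for it.

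Cxcl11, although without a functional product in this strain, had the second highest level of the 4 genes in FPKM. The A2A antagonist libraries 1 to 4 had 249, 270, 292 and 273 CPM (9588, 12285, 12222 and 12413 counts), and the dual libraries 1 to 4 had 244, 246, 228 and 251 CPM (7969, 9377, 10443 and 11146 counts). The groups overlapped through A2A antagonist replicate 1, the lowest of its group, and dual replicate 4, the highest of its own. The means were 271 ± 18.0 and 242 ± 10.4 CPM (SD, n = 4 each), with a log2 fold change of -0.16 (SE 0.04, 95% interval -0.25 to -0.07). The difference did not pass the threshold (adjusted p = 0.116, edgeR), and p was 0.0571 in the exact permutation test. The outcome turned on 1 library, on the tool and on the filter. Without A2A antagonist replicate 1 the log2 fold change was -0.20 and the gene was called (adjusted p = 0.0252, edgeR), and DESeq2 called it with all 8 libraries (adjusted p = 0.0172), as did edgeR without a filter on low counts (adjusted p = 0.00838). The 7 other fits that left out a library did not call it.

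Cxcr3, the receptor of T cells and natural killer cells, was barely detected. Its counts were 15, 6, 13 and 4 in the A2A antagonist libraries 1 to 4 and 9, 3, 4 and 6 in the dual libraries 1 to 4. These equal 0.389, 0.132, 0.311 and 0.0880 CPM and 0.276, 0.0788, 0.0871 and 0.135 CPM, where 3 counts make 0.0654 to 0.0919 CPM in these libraries. The groups overlapped widely, and replicate 1 was again the highest in each. In the fit without a filter, the log2 fold change was -0.69 (SE 0.56, 95% interval -1.80 to 0.43, adjusted p = 0.675, edgeR), and p was 0.2857 by exact permutation. The interval spans dual levels from 0.287 to 1.34 times the antagonist level, so a difference of either sign was not detectable at this depth. The spread between libraries was 62.3% and 63.2%, beside an expected counting error of 32.4% and 42.6%. The estimate moved from -0.69 to -0.33 without A2A antagonist replicate 1 and to -1.15 without dual replicate 1.

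All 3 ligands thus had a log2 fold change below 0, as did 48.5% of the genes tested, and 1 of the 3 was called. An unadjusted p under 0.05 was reached by all 3 (Cxcl9 0.00116, Cxcl10 4.32e-05 and Cxcl11 0.00170, edgeR), against 12.8% of all genes tested, 6.81% in the lower direction. Summed over the ligands, the level was 703, 775, 782 and 799 CPM in the A2A antagonist libraries 1 to 4 and 668, 684, 616 and 675 CPM in the dual libraries 1 to 4. These ranges did not overlap, and the sum is mostly Cxcl10 and Cxcl11. The proportions among ligands were less distinct between groups. The ratio of Cxcl10 to Cxcl11 in CPM ran from 1.65 to 1.899 with the antagonist and from 1.67 to 1.75 with both compounds. The ratio of Cxcl10 to Cxcl9 ran from 54.8 to 78.3 and from 67.1 to 86.8, and that of Cxcl11 to Cxcl9 from 30.5 to 41.5 and from 39.3 to 52.1. All 3 ratios overlapped between the groups.

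**Figure D2:**
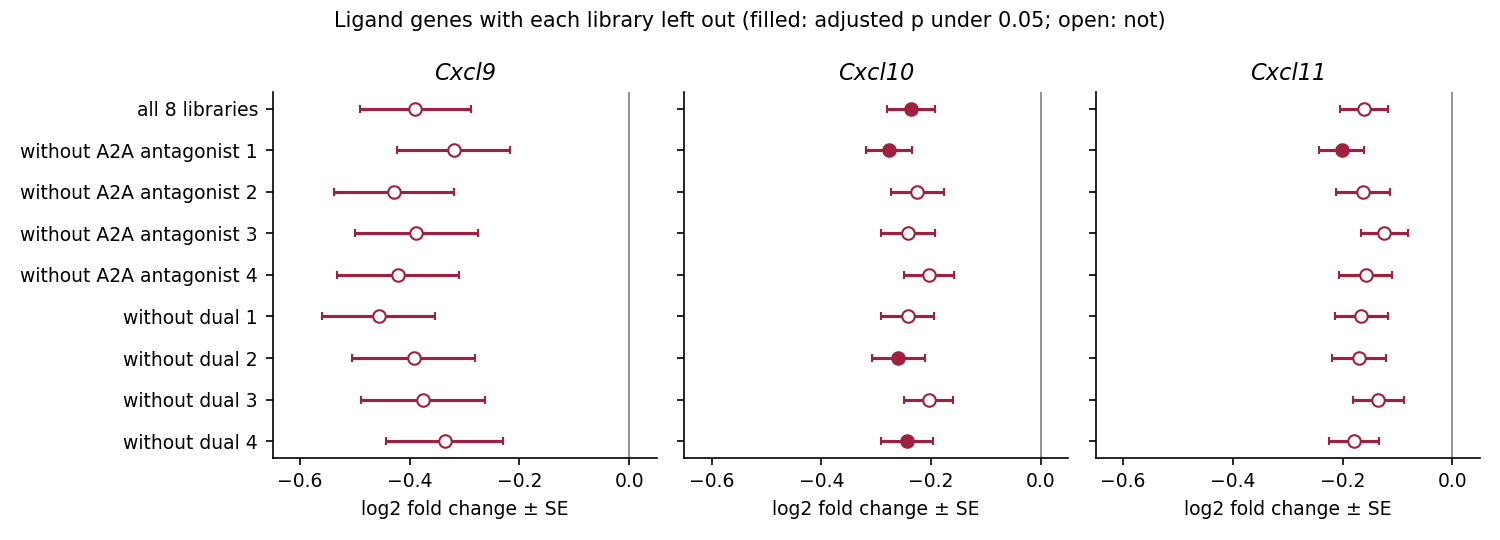
Log2 fold change (dual minus A2A antagonist, horizontal axis) with its SE for each ligand, with all 8 libraries and with each library left out. Filled points had an adjusted p under 0.05 and open points did not. Every estimate is below 0, Cxcl10 is filled with all libraries and in 3 of 8 other fits, Cxcl11 without A2A antagonist replicate 1 and Cxcl9 in none.

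Across the 8 libraries, Cxcl10 and Cxcl11 varied together more closely than either did with Cxcl9. Log2 CPM of Cxcl10 and Cxcl11 gave r = 0.875 (rho = 0.857, n = 8 libraries), and r = 0.681 after the mean of each group was subtracted. Many other genes were closer to either. Cxcl11 ranked 166 of 10716 in likeness to Cxcl10, and Cxcl10 ranked 71 in likeness to Cxcl11. After subtraction of the group means these ranks were 597 and 386. Cxcl9 gave r = 0.578 with Cxcl10 and r = 0.488 with Cxcl11, and these became -0.435 and -0.368 after subtraction of the group means. The libraries share their group differences and depth, and these values are descriptions without a test. The 10716 genes ranked were protein-coding genes of a mean log2 CPM of at least 3, together with the other ligands. Ligands aside, the 5 most like Cxcl10 were Ifit3b (r = 0.985), Naca (0.979), Usp18 (0.978), Cdc42se1 (0.977) and Ifi35 (0.975). Ifit3b, Usp18 and Ifi35 are interferon-induced genes. Most like Cxcl11 were Nol9 (r = 0.952), Bpnt1 (0.951), Insig1 (0.951), Tomm5 (0.949) and Ifi207 (0.944), of which Ifi207 belongs to an interferon-inducible family. For Cxcl9 they were Atg14 (r = 0.965), Camk4 (0.957), Ebna1bp2 (0.956), Tomm40l (0.956) and Ddx39 (0.937).

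The genes around the ligand cluster did not share a call. None of the 6 neighbours was called by edgeR, or by DESeq2 among the 4 with an adjusted value, and none had an unadjusted p under 0.05. Art3, which overlaps the cluster, had a log2 fold change of -0.21 (SE 0.14, adjusted p = 0.558, edgeR). Ppef2, a phosphatase gene of photoreceptors, had the widest error of the group at 0.37 (SE 0.28). Naaa, a lysosomal amidase, and the ribosome biogenesis gene Sdad1 had log2 fold changes of -0.03 and -0.05. On the other side of the cluster, the nucleoporin gene Nup54 and the lysosomal receptor gene Scarb2 had -0.05 and 0.01.

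**Figure D3:**
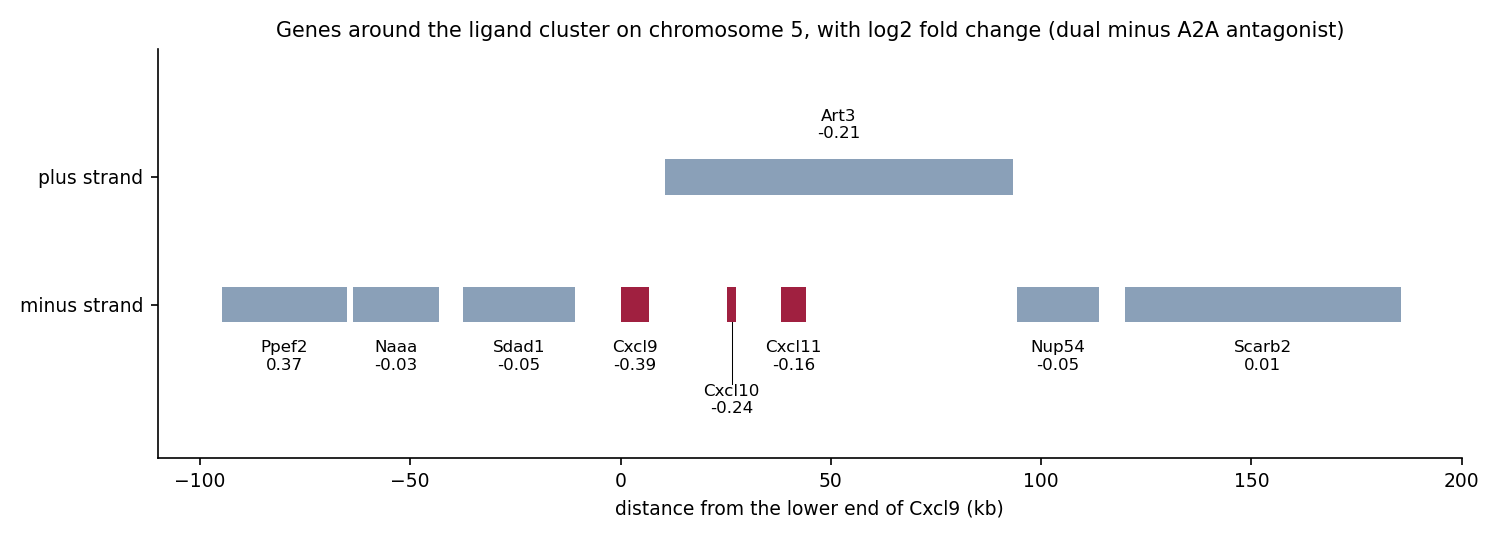
Map of the ligand cluster on chromosome 5, drawn as distance in kb from the lower end of Cxcl9, with plus-strand genes above and minus-strand genes below. Numbers are log2 fold changes, dual minus A2A antagonist. The ligands (red) have -0.39, -0.24 and -0.16, and Art3 on the plus strand runs over Cxcl10 and Cxcl11.

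Upstream of the ligands, interferon-γ signals through Ifngr1 and Ifngr2 and induces the transcription factor Irf1, and type I interferon acts through Stat2 and Irf9 among others. Of 15 tested genes of interferon signalling, 11 had a log2 fold change below 0 and 4 above, with a median of -0.02 against 0.0038 over all genes tested. None was called by edgeR, and DESeq2 called Irf1 and Irf7 as lower, against 3.36% of all genes with an adjusted value. An unadjusted p under 0.05 was reached by 4 (edgeR), 3 of them lower in the dual group. That p was reached by 12.8% of all genes tested, 6.81% in the lower direction. Irf1 had 134 ± 4.97 and 119 ± 1.87 CPM (SD, n = 4 each) without overlap of the groups, with -0.17 on the log2 scale (SE 0.04, adjusted p = 0.0557, edgeR). Irf7, an interferon-inducible factor, had -0.18 (SE 0.05, adjusted p = 0.114, edgeR) with overlapping groups. Irf3 (0.08, adjusted p = 0.371, edgeR) and Jak1 (0.02, adjusted p = 0.816, edgeR) were higher in the dual group without overlap of the groups. Non-overlapping groups were found for 7.42% of all genes tested, 4.06% with lower values in the dual group. Ifngr1 had a log2 fold change of -0.05, Ifngr2 -0.0084, Stat2 -0.05, Irf9 -0.07 and Irf8, a factor of myeloid cells, 0.07. Ifng, the gene of interferon-γ itself, was not listed in the table, and Ifnb1 had 0 to 3 counts per library.

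LPS acts through Tlr4 to NF-κB, whose subunits include Rela and the product of Nfkb1. Of 13 tested genes of this pathway, 8 had a log2 fold change below 0 and 5 above, with a median of -0.04. None was called by edgeR, and DESeq2 called Nfkbia, Tnfaip3 and Tnf as lower, against 3.36% of all genes with an adjusted value. An unadjusted p under 0.05 was reached by 6 (5 lower), against 12.8% of all genes tested (6.81% lower, edgeR). Nfkbia had a log2 fold change of -0.17 (adjusted p = 0.0686, edgeR) and Tnfaip3 -0.16 (0.0606), both without overlap of the groups. Myd88 had -0.13 (adjusted p = 0.186, edgeR), also without overlap. Of all genes tested, 4.06% were lower in the dual group without overlap. Tnf had -0.22 (adjusted p = 0.0912, edgeR) with overlapping groups. The receptor Tlr4 had a log2 fold change of 0.14 (SE 0.05, adjusted p = 0.268, edgeR), Rela -0.08 and Nfkb1 -0.03. Over both pathways, 4 genes were called by edgeR without A2A antagonist replicate 1 and 1 without dual replicate 4.

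A list of 10 interferon-induced genes that are not chemokines was also followed (Gbp2, Gbp5, Irgm1, Iigp1, Isg15, Ifit1, Ifit3, Rsad2, Usp18 and Mx1). This list was chosen with earlier results of these data known. All 10 had a log2 fold change below 0 and an unadjusted p under 0.05 (edgeR), with a median of -0.14. Over all genes tested, 48.5% were below 0 and 6.81% were lower at that p. By edgeR 2 of the list were called lower, against 0.160% of all genes tested. These were Isg15, a ubiquitin-like modifier (-0.25, adjusted p = 0.0255), and Ifit3, which belongs to a family that binds viral RNA (-0.23, adjusted p = 0.0240). DESeq2 called 6. Both edgeR calls were lost in 4 of the 8 fits that left out a library, namely when dual replicate 3 or any of A2A antagonist replicates 2, 3 and 4 was dropped, with adjusted p up to 0.0932. These 4 fits are among the 5 in which Cxcl10 missed the threshold. Of the 9 microglia markers, 5 were below 0 and 4 above, and C1qa, a complement gene, was called lower (-0.24, adjusted p = 0.0240, edgeR) and lost its call in the same 4 fits. Of the 6 microglia markers with an adjusted value, DESeq2 called 3 lower (C1qa, C1qb and Aif1) and 1 higher, the growth factor receptor gene Csf1r. Over all genes with an adjusted value, DESeq2 called 4.70%, with 3.36% lower. Csf1r had a log2 fold change of 0.11 without overlap of the groups (adjusted p = 0.171, edgeR). The part of marker differences in the chemokine values was not tested.

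Other CXC chemokines, most of which signal through receptors other than CXCR3, had no common direction. Of 11 genes, 9 were tested, 4 above and 5 below 0, with a median of -0.01. None was called by edgeR, or by DESeq2 among the 7 with an adjusted value, and 4 had an unadjusted p under 0.05, 2 in each direction. That p was reached by 12.8% of all genes tested (edgeR), 6.81% in the lower direction.

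Around the receptor, 9 genes that handle CXCR3 ligands or transmit its signal were tested, 3 above and 6 below 0, with a median of -0.05. None was called by edgeR, 1 (Grk2) had an unadjusted p under 0.05, and DESeq2 called Grk2 as lower. Of all genes, 12.8% reached that p (edgeR) and 3.36% of those with an adjusted value were called lower by DESeq2. Grk2, a kinase that phosphorylates active receptors, had a log2 fold change of -0.10 (adjusted p = 0.206, edgeR). Ackr3, an atypical receptor that takes up CXCL11 and CXCL12, had -0.02, and the erythroid scavenger receptor Ackr1 had -0.58 (SE 0.30) at under 1 CPM. Dpp4, a protease that trims and weakens CXCR3 ligands, had -0.05, with a 95% interval of -0.47 to 0.36. Pf4, a platelet chemokine that can also bind CXCR3, had 0.14. The Gi subunits Gnai2 and Gnai3 had -0.06 and 0.03, and the arrestins Arrb1 and Arrb2 had 0.06 and -0.06.

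**Figure D4:**
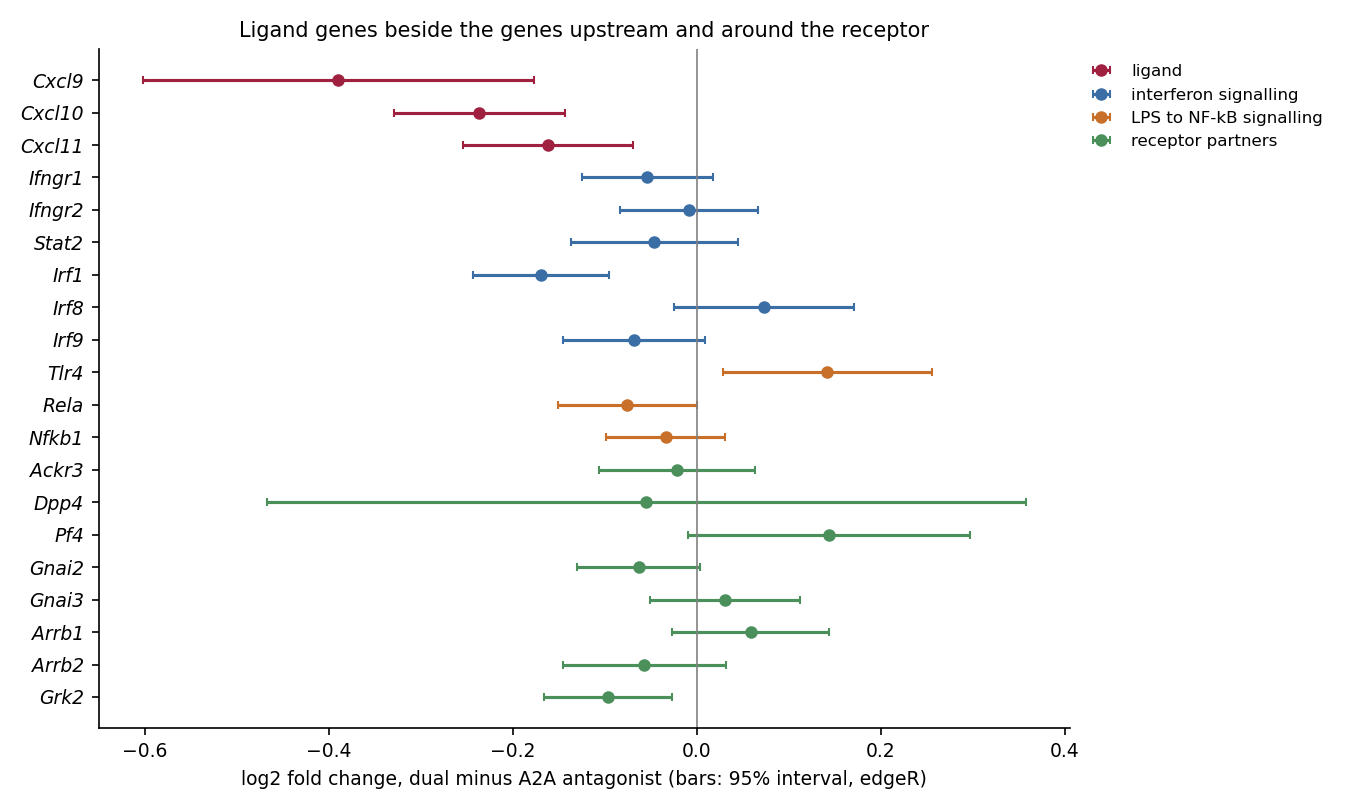
Log2 fold change, dual minus A2A antagonist (horizontal axis), with its 95% interval from edgeR, for the ligands (red), interferon signalling genes (blue), LPS to NF-κB genes (orange) and genes around the receptor (green). Of both signalling pathways only Ifngr1, Ifngr2, Stat2, Irf1, Irf8, Irf9, Tlr4, Rela and Nfkb1 are drawn. Irf7, Nfkbia, Tnfaip3 and Tnf, which DESeq2 called lower, are not drawn, and their intervals lie below 0. Also not drawn are Irf3, whose interval lies above 0, and Myd88 and Socs3, whose intervals lie below 0. DESeq2 called no gene of either pathway higher. Of the genes around the receptor, Ackr1 alone was left out, because of its wide interval. Among the genes shown, the intervals of all 3 ligands, Irf1, Grk2 and, barely, Rela lie below 0, that of Tlr4 lies above 0, and Cxcl10 was the one gene shown whose adjusted p over all genes was under 0.05.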

How the data were processed

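RNA-seq was performed on 8 libraries of activated microglia, 4 per group, grouped by sample title. The authors aligned paired-end reads with HISAT2 to the mouse genome (mm10) and counted reads per gene with featureCounts 1.5.0-p3. They deposited raw counts per gene, without normalization or pooling, and FPKM computed by the authors from those counts, gene length and adjusted library sizes. The authors' log2 fold changes and p-values, also in the tables, were not used, nor were 9 columns of per-sample values of control libraries that belong to no sample of this series.

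The test was edgeR 4.0.16, run in R 4.3.3 (TMM factors, filterByExpr with a minimum count of 10, quasi-likelihood F test without covariates, two-sided, Benjamini-Hochberg adjustment over all genes tested), and genes with an adjusted p under 0.05 are called. Cxcr3 failed the filter and its values come from a fit without it. Standard errors were derived from the F statistics. CPM are scaled with TMM factors (0.992 to 1.0085). Single genes were also compared by exact permutation tests on log2 CPM (prior count 2) in SciPy 1.17.1. The fit was tested on simulated data. Depth was 32630602 to 45878639 counts per library, and floors of 3 counts cover counting error only.

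Alternatives were DESeq2 1.42.0, other size factors, no filter, a replicate block and leaving out each library. A transcript-length alternative was added after seeing the data. The named genes are the 4 members, the genes called in each list, the main transcription factors and receptors of interferon and LPS signalling, all locus neighbours and receptor partners, and the 5 genes most like each ligand. Genes that DESeq2 alone called and the astrocyte and fibroblast markers were named after their values were seen. So were Irf3, Jak1, Myd88, Socs3, Cd3d, Cd3e, Lck, Ifng and Ifnb1. Members and lists were chosen with earlier results of these data known. Endothelial markers summed to 47.8 to 58.8 CPM with the antagonist and 50.2 to 61.1 CPM with both compounds, and oligodendrocyte markers to 120 to 132 and 103 to 146 CPM. None of either list was called by edgeR, or by DESeq2 where it gave an adjusted p, and none had an unadjusted p under 0.05. Promoter sequences matched 3 of the 4 members. Some list members are not reported here and were left out of the counts and sums of their lists.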

Additional observations from a re-analysis of the deposited data

Results flagged for a closer look

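The ratio of Cxcl11 to Cxcl9 in CPM set 1 A2A antagonist library far from the others. Replicate 1 had a ratio of 30.5, whereas replicates 2 to 4 had 41.5, 41.2 and 41.2. The gap to the nearest library took 0.968 of the range of the group, above the critical value of Dixon's test. In that library Cxcl9 was the highest of its group (8.14 CPM) and Cxcl11 the lowest (249 CPM). This was 1 of 16 groups of 4 libraries examined, and chance flags about 5% of groups. The cause was not tested.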

How the results depend on the processing

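The log2 fold changes of the 4 members kept their sign under every alternative run for them. Directions of the lists, locus neighbours, ratios and correlations were not rerun. By edgeR, 39 genes were called, against 39 with DESeq2 size factors, 35 with upper-quartile factors, 366 without a filter, 417 with DESeq2, and 0 to 172 with a library left out. Of the signalling genes, 0 were called with all libraries, 6 without a filter, 5 with DESeq2, and 0 to 4 with a library left out. Without a filter Cxcl9 passed the threshold (log2 fold change -0.40) and so did Cxcl11 (-0.17), which also passed with DESeq2 (-0.16). With a library left out, Cxcl9 ranged from -0.46 to -0.32, Cxcl10 from -0.28 to -0.20, Cxcl11 from -0.20 to -0.12 and Cxcr3 from -1.15 to -0.33. The adjusted p over all alternatives ranged from 0.0252 to 0.203 for Cxcl9, 1.66e-05 to 0.118 for Cxcl10, 0.00838 to 0.313 for Cxcl11 and 0.538 to 0.940 for Cxcr3. The cause of these shifts was not tested.

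Replicate numbers are shared between the groups, but same-numbered libraries did not deviate together (r = -0.158, -0.047, -0.09 and -0.206 over 11051 genes), and no library correlated best with its own number. With the replicate block, 17 genes and 0 signalling genes were called, and the log2 fold changes were -0.39 for Cxcl9 (adjusted p = 0.127), -0.24 for Cxcl10 (0.0493), -0.16 for Cxcl11 (0.211) and -0.64 for Cxcr3 (0.940). At 3 to 15 counts per library, Cxcr3 had the highest expected counting error of the 4 genes, and Cxcl9 the next.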
